A study of Mus musculus with 6 samples.

Results

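The ERK pathway feedback and output genes described here are 10 genes, Dusp1, Dusp4, Dusp5, Dusp6, Spry2, Spry4, Spred1, Egr1, Ier3 and Etv4, chosen by name as known ERK-responsive transcripts from the 48587 genes of the deposited count table. All 10 were found and all passed the abundance filter. They were measured in 6 total RNA libraries of the mouse mammary carcinoma line 4T1, in 2 groups of 3. METTL7A1 cells were stably transfected with full-length, FLAG-tagged Mettl7a1 cDNA in the vector pBICEP-CMV-2, mock cells carried the empty vector, and stable transfectants were kept under G418 selection in medium with serum. The study calls the libraries of a group biological triplicates. Whether each line came from 1 clone or a pool of transfectants is not given in the sources used here. Because the RNA is bulk, fewer expressing cells and less RNA per cell cannot be told apart.

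ERK, the last kinase of the Ras-Raf-MEK cascade, is switched on by growth factors through phosphorylation and induces a set of short-lived transcripts. Some of them encode its own brakes. Dual specificity phosphatases (DUSP) remove the activating phosphates from ERK and related kinases, Sprouty proteins restrain signalling between receptor and Raf, and Spred proteins recruit neurofibromin, an inactivator of Ras. Others encode outputs such as the zinc finger factor EGR1 and the Ets factor ETV4. The levels of these transcripts are widely read as a gauge of ERK signalling in carcinoma cells, although most of them also respond to other pathways. ERK phosphorylation itself was not measured in these libraries.

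The libraries held between 18386780 and 28459338 counts. The transfected gene followed the labels, with 6355, 11358 and 10398 counts of Mettl7a1 in METTL7A1 libraries 1 to 3 and 30, 30 and 29 in mock libraries 1 to 3. Of the epithelial markers, Krt8, Krt18, Epcam and Cdh1 had at least 2063 counts in every library and none was called between the groups, while the mesenchymal marker Vim fell by 1.16 on the log2 scale (edgeR adjusted p = 1.17e-05). Of 4 markers of other cell types, Ptprc, Pecam1 and Adipoq had at most 8, 16 and 2 counts. Pdgfra, a fibroblast marker, was detected and called higher in METTL7A1 cells (log2 fold change 0.47, edgeR adjusted p = 0.00177). The summed level of the 4 was 17.5 to 19.8 cpm (counts relative to the TMM-scaled size of the library) in mock libraries. In METTL7A1 libraries it was 23.8 to 26.6 cpm, a difference in the same direction as the members that rose. Nearly all of the sum was Pdgfra, with a mean of 17.7 cpm in mock and 24.5 cpm in METTL7A1 libraries. The part of this difference in the results below was not tested.

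The design compared METTL7A1 with mock cells, and for these 10 genes the difference was not a shift in 1 direction. As the groups are different stable transfectants, an effect of METTL7A1 and other differences between the lines cannot be told apart. Transcripts of the phosphatases Dusp1 and Dusp4, of Spred1 and of Egr1 rose, those of Spry2, Spry4 and Dusp5 fell, and Dusp6, Ier3 and Etv4 were not called. Called means an adjusted p under 0.05 in edgeR's quasi-likelihood test, adjusted over all 13166 genes tested. By this rule 7 of 10 members differed, 4 higher and 3 lower. A further fit set each gene against the median change of its 40 nearest abundant neighbours on the chromosome (the neighbour offset). The calls of Spred1 and Dusp5 were then lost and Dusp6 and Ier3 were called as lower, which made 3 higher and 4 lower. The median entered the fit as a fixed value, so p values with this offset leave out the error of the median. Over all tested genes 42.1% were called, 21.1% higher and 21.0% lower, so calls were common in this comparison. The median absolute log2 fold change was 0.42 over the members and 0.25 over all tested genes. Because the members were chosen with earlier results of these data known, such comparisons cannot show that the members changed more than other genes. In 8 of 10 members the METTL7A1 libraries lay wholly above or below the mock libraries, as they did in 51.6% of all genes. None of the members passed the thresholds of the study, an adjusted p under 0.01 with a change over 1.5 taken as log2, which 2.48% of genes passed. DESeq2 and voom also gave 0, and 8 members had an unadjusted p under 0.05.

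**Figure D1:**
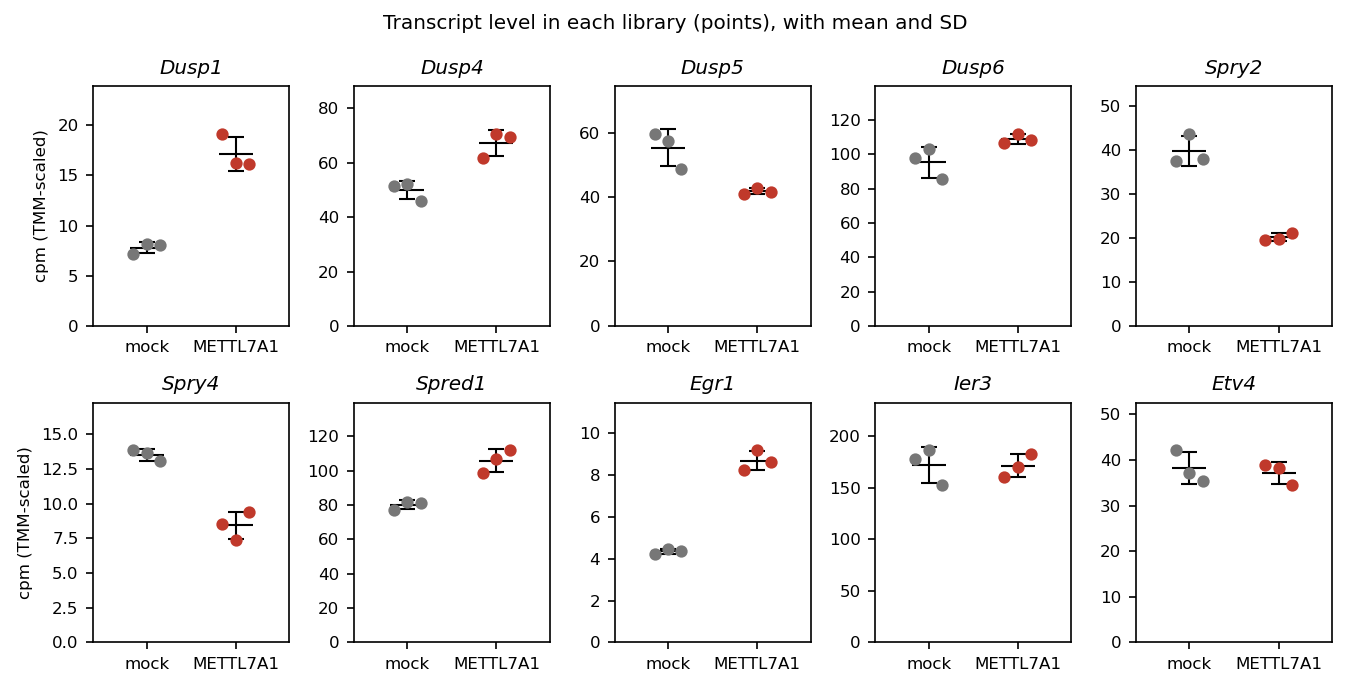
Level of each of the 10 transcripts in cpm (on TMM-scaled library sizes, linear axes from 0), with 1 point per library and the mean and SD of each group of 3. Dusp1, Dusp4, Spred1 and Egr1 are higher and Spry2, Spry4 and Dusp5 lower in every METTL7A1 library, while Ier3 and Etv4 overlap between the groups.

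The phosphatases were examined first. Among the nuclear members of the family, Dusp1 and Dusp5 moved in opposite directions. To show what stands before their start sites, 300 bases of each promoter (250 before and 50 after the RefSeq start site, build GRCm38.p6, from RefSeq) are given 5′ to 3′ on the strand of the gene. Capitals in Dusp1 mark the cAMP response element TGACGTCA, and capitals in Dusp5 mark a pair of abutting CArG boxes, the sequence bound by serum response factor. The Dusp1 window lies at chr17:26508423-26508722 on the minus strand and the Dusp5 window at chr19:53528895-53529194 on the plus strand.
Dusp1: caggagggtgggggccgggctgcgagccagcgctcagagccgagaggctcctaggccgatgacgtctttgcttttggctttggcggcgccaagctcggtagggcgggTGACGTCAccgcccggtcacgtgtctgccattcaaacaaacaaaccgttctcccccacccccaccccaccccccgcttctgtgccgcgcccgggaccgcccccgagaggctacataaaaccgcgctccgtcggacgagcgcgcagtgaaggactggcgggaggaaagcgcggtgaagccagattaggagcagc
Dusp5: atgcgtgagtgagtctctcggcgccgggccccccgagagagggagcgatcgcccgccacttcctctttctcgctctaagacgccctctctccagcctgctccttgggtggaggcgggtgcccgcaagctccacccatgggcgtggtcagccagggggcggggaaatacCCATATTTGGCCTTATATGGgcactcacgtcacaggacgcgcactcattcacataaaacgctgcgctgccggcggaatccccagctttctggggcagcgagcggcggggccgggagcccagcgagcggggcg

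Both strands were searched for the CArG box, the Ets core GGAA, the cAMP response element TGACGTCA and the AP-1 element TGACTCA. Of the 10 members, 6 had a promoter in the table used (Dusp1, Dusp5, Dusp6, Spry2, Spred1 and Ier3). The cAMP response element of Dusp1 began at position -143 from the start site and was the only one found in the 6 windows. It occurs in 1.79% of 32851 promoters. The boxes of Dusp5 began at -82 and -72, and no other of the 6 windows held a CArG box, which 1.63% of all promoters do. Ets cores were counted 1 time in Dusp1, 3 times in Dusp5, 6 times in Dusp6 and 5 times each in Spry2, Spred1 and Ier3, but 96.0% of all promoters hold at least 1. The AP-1 element, present in 5.2% of promoters, was in none of the 6. The matches do not overlap each other and describe letters only, as binding was not measured. The start sites of RefSeq lay 47 and 36 bases downstream of those in the count table for Dusp1 and Dusp5. For Spred1 the position relative to the start in the count table was -303 bases, so that its window ends before the start site of the count table.

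Dusp1 (chromosome 17, 26505590 to 26508519, mm10) encodes MKP-1, an early-induced nuclear phosphatase that acts on p38, JNK and ERK. Its level was 7.16, 8.21 and 8.05 cpm in mock libraries 1 to 3 and 19.1, 16.2 and 16.1 cpm in METTL7A1 libraries 1 to 3. The groups were far apart compared with their spread. The log2 fold change was 1.13 with a standard error (SE) of 0.11 (edgeR adjusted p = 2.34e-05), a 2.18-fold rise, and 95.5% of tested genes had a smaller absolute change.

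Dusp4 (chromosome 8, 34807297 to 34819894) encodes MKP-2, a nuclear phosphatase induced by ERK. It measured 51.3, 52.3 and 46.1 cpm in mock and 61.7, 70.6 and 69.6 cpm in METTL7A1 libraries. The lowest METTL7A1 library stood above the highest mock library, and the groups differed by 0.43 in log2 (SE 0.08, edgeR adjusted p = 0.00129). With the neighbour offset the difference was 0.23 (edgeR adjusted p = 0.0488). Dusp5 (chromosome 19, 53529109 to 53542431), a nuclear phosphatase selective for ERK, went the other way, from 59.6, 57.4 and 48.7 cpm in mock to 40.8, 42.7 and 41.7 cpm. The METTL7A1 libraries were tightly grouped below all mock libraries, and the difference in log2 was -0.40 (SE 0.08, edgeR adjusted p = 0.00281). It was -0.21 and not called with the neighbour offset (edgeR adjusted p = 0.0849).

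Dusp6 (chromosome 10, 99263231 to 99267488) encodes MKP-3, the cytoplasmic phosphatase of ERK and a much used marker of ERK activity. It had 97.6, 103 and 85.5 cpm in mock and 106, 112 and 108 cpm in METTL7A1 libraries. Although the groups did not overlap, the log2 fold change of 0.19 (SE 0.08, 95% interval 0.02 to 0.36) was not called (edgeR adjusted p = 0.0737). It was called as higher without METTL7A1 replicate 1 (0.22, edgeR adjusted p = 0.0433) and without mock replicate 2 (0.25, edgeR adjusted p = 0.0432). With the neighbour offset it was called as lower (-0.24, edgeR adjusted p = 0.0388). The adjusted p ranged from 0.0366 to 0.199 over all alternatives, in either direction.

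With levels divided by exon length (cpm per kb), the 4 phosphatase transcripts summed to 81.3, 83.3 and 71.2 in mock and 86.7, 91.2 and 89.0 in METTL7A1 libraries. It leaves out other phosphatases, so its size and make-up hold for these 4 only. Among those left out, Dusp7 had 24.4 cpm per kb in mock and 15.3 in METTL7A1 cells, and Dusp9 15.5 and 10.6. Dusp14, which was not called, had 13.4 and 15.4. The make-up of the sum of the 4 differed more than its size. Dusp5 held 28.4% ± 1.06 of it in mock and 19.0% ± 0.0653 in METTL7A1 cells, and Dusp1 held 5.02% ± 0.633 and 9.71% ± 1.20 (SD, n = 3 each). Dusp4 held 23.2% ± 0.391 and 27.6% ± 1.41, and Dusp6 43.4% ± 0.758 and 43.7% ± 0.267 (SD, n = 3 each). Per length, the ratio of Dusp4 to Dusp5 was 0.778, 0.822 and 0.853 in mock and 1.36, 1.49 and 1.51 in METTL7A1 libraries. Dusp5 was thus the more abundant of the pair in every mock library and Dusp4 in every METTL7A1 library.

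**Figure D2:**
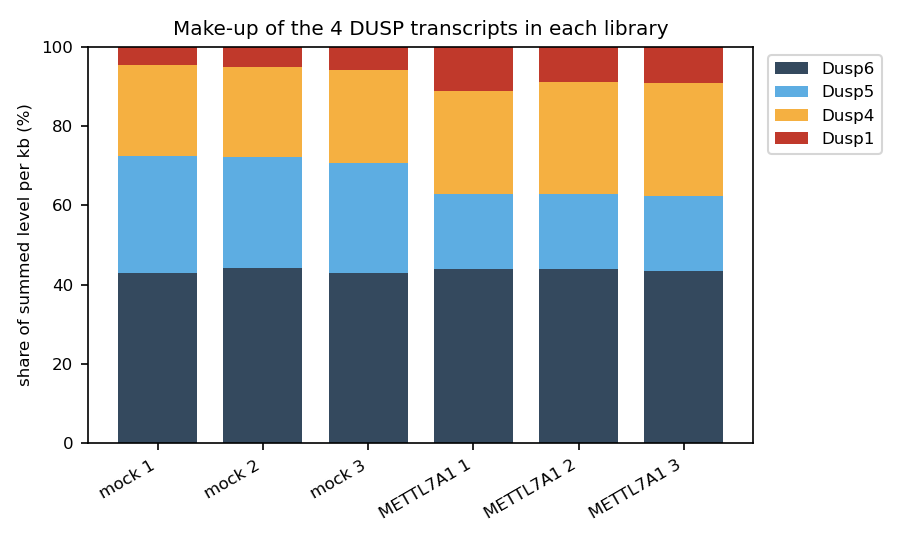
Share of each phosphatase transcript in the summed level per kb of Dusp1, Dusp4, Dusp5 and Dusp6 (percent, stacked to 100), 1 bar per library. Dusp5 holds 28.4% on average in mock and 19.0% in METTL7A1 libraries, while the share of Dusp6 is 43.4% and 43.7%.

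Both Sprouty members, Spry2 and Spry4, fell. Spry2 (chromosome 14, 105891949 to 105896819) encodes a membrane-associated inhibitor of receptor tyrosine kinase signalling and measured 37.4, 43.6 and 37.9 cpm in mock against 19.5, 19.8 and 21.2 cpm in METTL7A1 libraries. This left 50.9% of the mock level, a difference of -0.97 in log2 (SE 0.09, edgeR adjusted p = 9.44e-06), with a wide gap between the groups. Spry4 (chromosome 18, 38586268 to 38601268), a related inhibitor, was less abundant, with 13.8, 13.7 and 13.0 cpm in mock and 8.57, 7.41 and 9.37 cpm in METTL7A1 libraries. All METTL7A1 libraries were lower, and the log2 change was -0.68 (SE 0.12, edgeR adjusted p = 0.000824), or -1.04 with the neighbour offset. The summed level per kb of Spry2 and Spry4 was 22.0 ± 1.67 in mock and 11.5 ± 0.605 in METTL7A1 cells (SD, n = 3 each). This sum leaves out Spry1, which is not a member and had 8.44 cpm per kb in mock and 8.43 in METTL7A1 cells.

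Spred1 (chromosome 2, 117121374 to 117182279), the adaptor of neurofibromin, rose from 77.0, 81.9 and 81.4 cpm in mock to 98.7, 107 and 112 cpm in METTL7A1 libraries. Its log2 fold change was 0.40 (SE 0.07, edgeR adjusted p = 0.000988). This call was lost with the neighbour offset (0.10, edgeR adjusted p = 0.322). The ratio of Spred1 to Spry2 per length was 0.632, 0.578 and 0.660 in mock and 1.56, 1.66 and 1.62 in METTL7A1 libraries, so the order of the pair differed between the groups in all libraries.

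The output genes were divided as well. Egr1 (chromosome 18, 34859823 to 34864984), an immediate early transcription factor, was the least abundant member in mock per length and had 77, 108 and 109 counts in mock against 153, 271 and 213 counts in METTL7A1 libraries. In cpm this was 4.21, 4.46 and 4.39 against 8.24, 9.18 and 8.64, a narrow spread in both groups. The log2 fold change was 1.00 (SE 0.13, edgeR adjusted p = 0.000124). The ratio of Dusp1 to Egr1 per length, both early-induced genes, lay between 3.83 and 4.15 in mock and between 3.98 and 5.23 in METTL7A1 libraries, and these ranges overlap.

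Ier3 (chromosome 17, 35821684 to 35822923), an early response gene linked to cell survival, was by far the most abundant member per length and overlapped between the groups, with 178, 186 and 152 cpm in mock and 160, 170 and 183 cpm in METTL7A1 libraries. The log2 fold change was -0.01 (SE 0.09, 95% interval -0.20 to 0.19, edgeR adjusted p = 0.954). Etv4 (chromosome 11, 101769742 to 101785371), an Ets factor of the PEA3 group, also overlapped, with 42.1, 37.1 and 35.5 cpm in mock and 38.9, 38.3 and 34.4 cpm in METTL7A1 libraries. Its log2 fold change was -0.04 (SE 0.09, 95% interval -0.23 to 0.15, edgeR adjusted p = 0.751). With the neighbour offset Ier3 was called as lower (-0.25, edgeR adjusted p = 0.0476) and Etv4 was not called.

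The order of levels per length also differed between the groups. In mock it ran from Ier3 (152 cpm per kb) over Dusp6 (34.1), Dusp5 (22.3), Spry2 (19.0), Dusp4 (18.2), Etv4 (15.9), Spred1 (11.8), Dusp1 (3.92) and Spry4 (2.95) to Egr1 (0.970). From Dusp5 to Etv4 each gene overlapped the next across libraries. In METTL7A1 cells the order was Ier3 (151 cpm per kb), Dusp6 (38.9), Dusp4 (24.6), Dusp5 (16.9), Spred1 (15.6), Etv4 (15.5), Spry2 (9.68), Dusp1 (8.62), Egr1 (1.94) and Spry4 (1.84). There the levels of Spred1 and Etv4, of Spry2 and Dusp1, and of Egr1 and Spry4 overlapped. Spry2 thus went from the fourth to the seventh place.

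Each member was also set beside its 40 nearest abundant neighbours on the same chromosome, to see whether its surroundings differed between the lines. The neighbours of Spry4 and Egr1 on chromosome 18 had median log2 fold changes of 0.36 and 0.32, so Spry4 fell where the median of its neighbours was higher. The median was 0.43 around Dusp6, 0.30 around Spred1, 0.25 around Ier3, 0.21 around Dusp1, 0.21 around Dusp4, -0.07 around Etv4, -0.20 around Dusp5 and -0.27 around Spry2. With these medians as offsets in the fit, Dusp1 (0.92), Egr1 (0.68) and Spry2 (-0.70) were called in the same direction as before, as were Dusp4 and Spry4, whereas Dusp6 was called as lower (-0.24, edgeR adjusted p = 0.0388). Gene copy number was not measured.

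**Figure D3:**
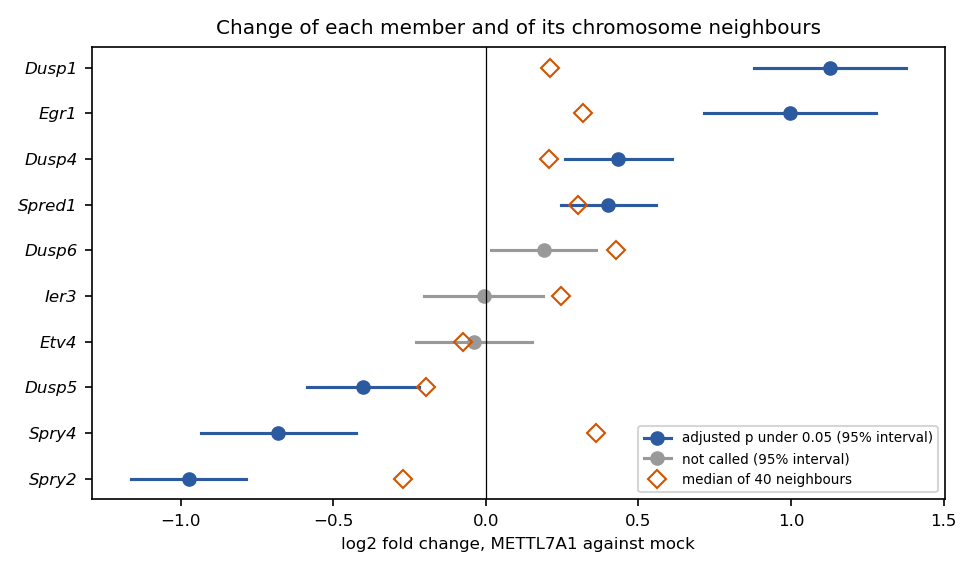
Log2 fold change of METTL7A1 against mock for each member (filled circles, with 95% intervals, blue where called) and median log2 fold change of its 40 chromosome neighbours (open diamonds). Spry4 lies at -0.68 with its neighbours at 0.36, whereas Spred1 at 0.40 lies close to its neighbours at 0.30.

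The rest of the pathway was followed in 75 further genes in 6 lists, of which 70 were tested. Of these 33 (47.1%) were called, 15 higher and 18 lower, against 42.1% of all genes. The list closest to the members held other phosphatases, Sproutys and Spreds. Of 10 tested, 2 were called higher and 3 lower (50% called). Dusp7 and Dusp9, which like Dusp6 encode cytoplasmic phosphatases of ERK, fell from 78.5 ± 7.65 to 49.0 ± 4.13 cpm and from 42.3 ± 6.81 to 28.9 ± 2.86 cpm (SD, n = 3 each), differences in log2 of -0.68 (SE 0.09) and -0.54 (SE 0.12). Dusp8, a phosphatase of JNK and p38, fell by 0.30 (SE 0.08), a call that was lost without an abundance filter (-0.27) and with the neighbour offset (-0.21). Spred3 rose by 0.36 (SE 0.10) and Spred2 by 0.31 (SE 0.11). The call of Spred3 was lost without METTL7A1 replicate 2 or mock replicate 2, and that of Spred2 was not followed under the alternatives. Spry1 had a log2 fold change of 0.00 (SE 0.10). Spred2 and Spry1 were chosen after their values were seen, to complete their families.

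Upstream of Ras, 5 of 11 tested genes (45.5%) were called, 2 higher and 3 lower, against 42.1% of all genes. Rasa1, a GTPase-activating protein of Ras, had 155 ± 2.89 cpm in mock and 97.2 ± 1.55 cpm in METTL7A1 cells (SD, n = 3 each), and its log2 change was -0.68 (SE 0.06), or -0.37 with the neighbour offset. The docking protein gene Gab1 fell by 1.17 (SE 0.20) from a low level of 6.47 cpm. The adaptor genes Frs2 and Shc1 rose by 0.48 (SE 0.11) and 0.23 (SE 0.06). The call of Frs2 was lost with the neighbour offset (0.14), and that of Shc1 without METTL7A1 replicate 2 (0.21). In the cascade itself 5 of 12 (41.7%) were called, 2 higher and 3 lower. Hras, which encodes a Ras GTPase, had a log2 fold change of -0.49 (SE 0.09). Rras rose by 0.67 (SE 0.14) and Mapk3, the gene of ERK1, by 0.71 (SE 0.16), both from under 6 cpm in mock. Among scaffolds and modulators, 2 of 7 (28.6%) were called. Pea15a, which encodes an ERK-binding protein that holds ERK in the cytoplasm, rose by 0.97 (SE 0.08) and Lamtor3, a MEK1 partner on endosomes, fell by 0.47 (SE 0.11).

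Among kinases activated by ERK and Ets factors 10 of 16 (62.5%) were called, 6 higher and 4 lower, against 42.1% of all genes. The strongest were Rps6ka2, which encodes a p90 ribosomal S6 kinase (17.2 ± 1.55 to 37.2 ± 2.59 cpm, SD, n = 3 each, log2 fold change 1.12, SE 0.09), Mknk2 (0.71, SE 0.08), Rps6ka5 (0.76, SE 0.10) and Ets2 (0.62, SE 0.08), and all of them rose. With the neighbour offset Mknk2 was at 0.45 and still called. The 4 called lower were Erf (-0.49), Rps6ka4 (-0.31), Rps6ka1 (-0.27) and Etv6 (-0.26). Etv5 (0.46, SE 0.08) and Elk3 (0.31, SE 0.07) were also called higher. Of 14 tested other output genes 2 were called higher and 4 lower (42.9% called). Areg, the EGF receptor ligand amphiregulin, had 16.4 ± 2.04 cpm in mock and 8.09 ± 0.798 cpm in METTL7A1 cells (SD, n = 3 each) and changed by -1.02 in log2 (SE 0.12). Epha4 fell by 0.70 (SE 0.06) and the AP-1 subunit gene Fosl1 by 0.36 (SE 0.07). Hbegf, another EGF receptor ligand, rose by 0.32 (SE 0.07), about as much as its neighbours on chromosome 18 (0.31), and was not called with the neighbour offset (0.01). Egr2, Egr3, Rasgrp1 and Ksr2 were under the abundance filter and were not tested in the main fit. Spry3 was not analysed here.

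**Figure D4:**
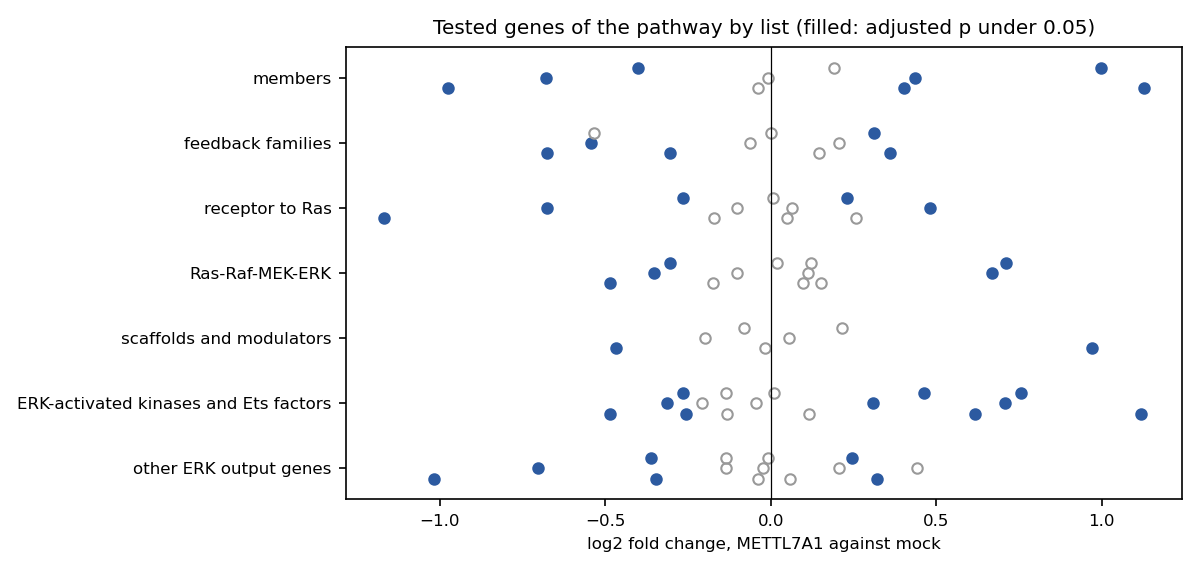
Log2 fold change of METTL7A1 against mock for the tested genes of the members and of the 6 pathway lists, 1 circle per gene, filled where the adjusted p was under 0.05 (vertical offsets within a list only separate the circles). Called genes lie on both sides of 0 in every list, with 7 of 10 members and 33 of 70 further genes filled.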

How the data were processed

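Total RNA of 3 METTL7A1 and 3 mock libraries, depleted of ribosomal RNA and stranded, was used, and groups and replicate numbers were read from the sample titles. The authors trimmed reads with BBDuk, aligned pairs to mm10 with STAR 2.5.3a and deposited raw counts per gene from featureCounts, without normalization. The table also lists exon lengths. Here genes with at least 1 cpm in at least 3 libraries were kept (13166), scaled by TMM and compared with edgeR 4.0.16 (R 4.3.3) by the quasi-likelihood test without covariates, with Benjamini-Hochberg adjustment over all genes. SE is the log2 fold change divided by the square root of F, and 95% intervals are unadjusted. Intervals and p values cover the spread between these libraries only. No exon of a member overlapped another gene of the table.

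Alternatives were RLE and upper quartile scaling, other filters, removal of the 20 most abundant genes, a replicate block, omission of each library, DESeq2 1.42.0, limma 3.58.1 (voom), an offset for the median change of the 40 nearest genes of log2 cpm over 2, and a linear reading of the fold threshold. Members, lists and alternatives were chosen with earlier results of these data known. Beside the members, at most 4 called genes with the smallest adjusted p per list are named (some are not reported here), and other genes named were chosen after their values were seen. The fit was tested on simulated counts first. These held fewer changed genes and larger changes than were typical here, so that test does not cover the setting of these data. Promoters are those of RefSeq (GRCm38.p6), from 250 bases before to 50 after the start site.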

Additional observations from a re-analysis of the deposited data

How the results depend on the processing

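The count of 7 called members was 7 or 8 under all alternatives including the omission of each library (7 to 8), but not always the same members: with the neighbour offset the 7 were 3 higher and 4 lower, with Spred1 and Dusp5 lost and Dusp6 and Ier3 gained. The count of 33 called pathway genes lay between 30 and 35 under other scalings, filters and tests, and between 25 (without METTL7A1 replicate 2) and 38 (without mock replicate 3) with 1 library left out. No member passed the thresholds of the study in any setting except the linear reading of the fold (1.5-fold), which gave 4 (Dusp1, Egr1, Spry2 and Spry4). Dusp1, Dusp4, Spry2, Spry4 and Egr1 were called in the same direction under all 15 alternatives. Deviations of same-numbered libraries from their group means had correlations of -0.16, 0.25 and -0.40. These values are too few, and without other pairs beside them, to decide whether the numbers pair the libraries. With the replicate block 7 members, 32 pathway genes and 0 members at the study thresholds were counted.

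The members and the genes named by smallest adjusted p gave 480 values under alternatives. Of these, 458 kept their direction and side of 0.05, 9 lost their call, 4 gained one and 9 changed sign. The sign changes were in members near 0 and were not called, except Dusp6 with the neighbour offset (-0.24). Etv4 was 0.036 with the offset and lay between -0.081 and 0.049 with 1 library omitted. Ier3 was 0.028 without an abundance filter, 0.011 after removal of the 20 most abundant genes, and between -0.079 and 0.049 with 1 library omitted. Dusp6 was also called with upper quartile scaling (0.20). The causes were not tested.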
